A study of Mus musculus with 12 samples.

Results

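*Siglech*, *Ly6c2*, *Ccr9*, *Irf8*, *Spib*, *Runx2*, *Klk1* and *Pacsin1* are 8 genes with high expression in mouse plasmacytoid dendritic cells (pDCs). They were looked up by symbol among the 47643 genes of the deposited table, and all 8 were found there. The table gives TPM, a transcript level normalized to transcript length and library size, for poly(A)+ RNA of common lymphoid progenitors (CLPs), the bone marrow progenitors of B, T and NK cells. The study asked whether RNA made from a *Firre* transgene alters the CLP transcriptome of mice that lack the *Firre* locus, which encodes a nuclear long non-coding RNA. In total, 12 male mice gave 1 library each.

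The WT group held 4 mice with an intact locus. The ∆*Firre* group held 4 mice in which the whole locus was removed in all tissues, by a CMV-Cre that was then bred out. The *Firre* rescue group held 4 mice with the same deletion, a tg(Firre) cDNA behind a tetracycline-responsive promoter and a CAG-driven rtTA3 activator, and these mice were fed doxycycline (dox). Deletion was thus shared by ∆*Firre* and rescue mice, while dox, tg(Firre) and rtTA3 were present in rescue mice only, so that these 3 factors cannot be told apart. Mice were 27 to 32 weeks old. CLPs were sorted as Lin-Sca1lo c-Kitlo IL7Rα+ cells, and the antibody cocktail that removed lineage-positive cells included antibodies against B220, a surface protein that mature pDCs carry, and against CD11b and Gr-1, which monocytes and neutrophils carry. *Firre* was at 25.2 to 31.6 TPM in WT libraries, was listed at 0 in all 4 ∆*Firre* libraries and was at 59.9 to 174 TPM in rescue libraries, as the labels give.

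pDCs are the immune cells known for making large amounts of type I interferon when TLR7 or TLR9 meet nucleic acid in their endosomes. They arise in bone marrow from both myeloid and lymphoid progenitors, and IL7Rα+ lymphoid progenitors are a known source. TCF4, an E protein, directs their fate, with IRF8, SPIB and RUNX2 as further regulators, while Siglec-H marks their surface in mice. The RNA of a sorted population cannot show whether a gene is read in many cells at a low level or in few cells at a high level, and fewer such cells and less RNA per cell cannot be told apart here.

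For the 4 most abundant members, the sequence upstream of the start is shown so that its motifs can be set beside their levels. The bases before the annotated gene were taken from RefSeq (GRCm38.p6), which matched 8 of 8 members. Capitals mark a GGAAGT ETS motif, an AANNGAAA IRF motif or a TGNGGT RUNX motif on either strand, each sequence reading 5′ to 3′ along the gene. The lines below give the 220 bases before *Siglech* at chr7:55767934-55768153 on the plus strand, the 250 bases before *Ccr9* at chr9:123766961-123767210 on the plus strand, the 250 bases before *Irf8* at chr8:120736108-120736357 on the plus strand and the 80 bases before *Runx2* at chr17:44814798-44814877 on the minus strand.
Siglech: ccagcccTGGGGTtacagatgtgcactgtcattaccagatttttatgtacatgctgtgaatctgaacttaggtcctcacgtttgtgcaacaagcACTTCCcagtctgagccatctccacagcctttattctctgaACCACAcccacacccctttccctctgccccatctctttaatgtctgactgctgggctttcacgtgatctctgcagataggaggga
Ccr9: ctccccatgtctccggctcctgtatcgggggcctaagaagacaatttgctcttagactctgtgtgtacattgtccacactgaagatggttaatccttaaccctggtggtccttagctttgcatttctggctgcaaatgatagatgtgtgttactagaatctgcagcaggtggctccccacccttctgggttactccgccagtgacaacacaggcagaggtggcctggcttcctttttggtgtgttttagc
Irf8: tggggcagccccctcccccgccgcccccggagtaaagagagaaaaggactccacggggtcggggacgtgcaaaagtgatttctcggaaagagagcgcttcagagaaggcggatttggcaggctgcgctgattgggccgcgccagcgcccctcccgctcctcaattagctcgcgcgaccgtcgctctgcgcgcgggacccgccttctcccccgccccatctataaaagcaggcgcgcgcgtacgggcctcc
Runx2: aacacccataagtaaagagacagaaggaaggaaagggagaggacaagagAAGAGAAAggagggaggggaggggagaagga
The *Siglech* stretch held 1 GGAAGT and 2 TGNGGT motifs, the *Runx2* stretch held 1 AANNGAAA, and the *Ccr9* and *Irf8* stretches held none of the 3. The members have 10 listed starts, as *Irf8* and *Ly6c2* have 2 each, and the 2 windows of *Ly6c2* overlap. Over the 250 bases before a start, TGNGGT was in 6 of these 10 windows against 40.1% of 32851 promoters, GGAAGT was in 3 against 19.7%, and AANNGAAA was in 1 against 21.3%. A CANNTG E-box, the kind of site that E proteins bind, was in 8 of the 10 windows against 66.2% of promoters. It overlapped a TGNGGT in the *Runx2* window and in the second *Irf8* window, in bases that lie within the annotated genes and are not shown. A match describes letters only.

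Reads recovered from the spacing of TPM values came to 10846564 to 17910645 per WT library, 14157053 to 17309185 per ∆*Firre* library and 25388637 to 32158935 per rescue library. By the numbers of the libraries, 2 ranges each hold 2 WT and 2 ∆*Firre* mice, and the 4 rescue mice form a range apart. Rescue and its range therefore cannot be told apart. CLP genes fitted the label in every group: *Il7r* was at 353 to 525 TPM, *Flt3* at 506 to 709 TPM and *Kit* at 48.2 to 82.9 TPM. The WT 6 library stood apart in its basophil and mast cell genes, whose 8 levels summed to 9241 TPM against 1084 to 2834 TPM in the other WT libraries, and no member's call appeared or was lost without it except that of *Irf8* given below.

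Of the 8 genes, 7 had a mean of at least 1 TPM over the 12 libraries and were tested with limma among 14479 genes, while *Klk1* was not. No member passed the test between ∆*Firre* and WT, where 0.0207% of all genes tested were called. Few calls were thus open to any list. An unadjusted p under 0.05 was found for 0 of 7 members, beside 767 of 14479 genes. As limma-voom called 0 of 14477 genes there, its lack of calls tells nothing particular to the members. The study's own test, made on counts with empirical p-values, called more genes at the same threshold. The lack of calls here therefore does not show that levels were equal. Between rescue and ∆*Firre*, *Runx2* and *Ccr9* were lower and *Irf8* was higher, which makes 3 of 7 members called against 27.9% of all genes. Between rescue and WT only *Runx2* was called, 1 of 7 members against 24.3% of all genes. With 7 members these counts are close to the background, and both rescue comparisons share the same 4 rescue libraries. The median log2 difference of the 7 members was -0.28 between rescue and ∆*Firre* and -0.35 between rescue and WT, beside medians of -0.16 and -0.21 over all genes tested, and -0.04 beside -0.06 between ∆*Firre* and WT. Scaling by median ratios moved the medians over all genes to -0.05 and -0.03 in the 2 rescue comparisons and those of the members to -0.16 and -0.17, and the called members kept their sign under each scaling tried. A call needed an adjusted p of at most 0.1. Unless an alternative is named, every log2 difference is that of TPM + 1, which understates changes of low genes.

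**Figure D1:**
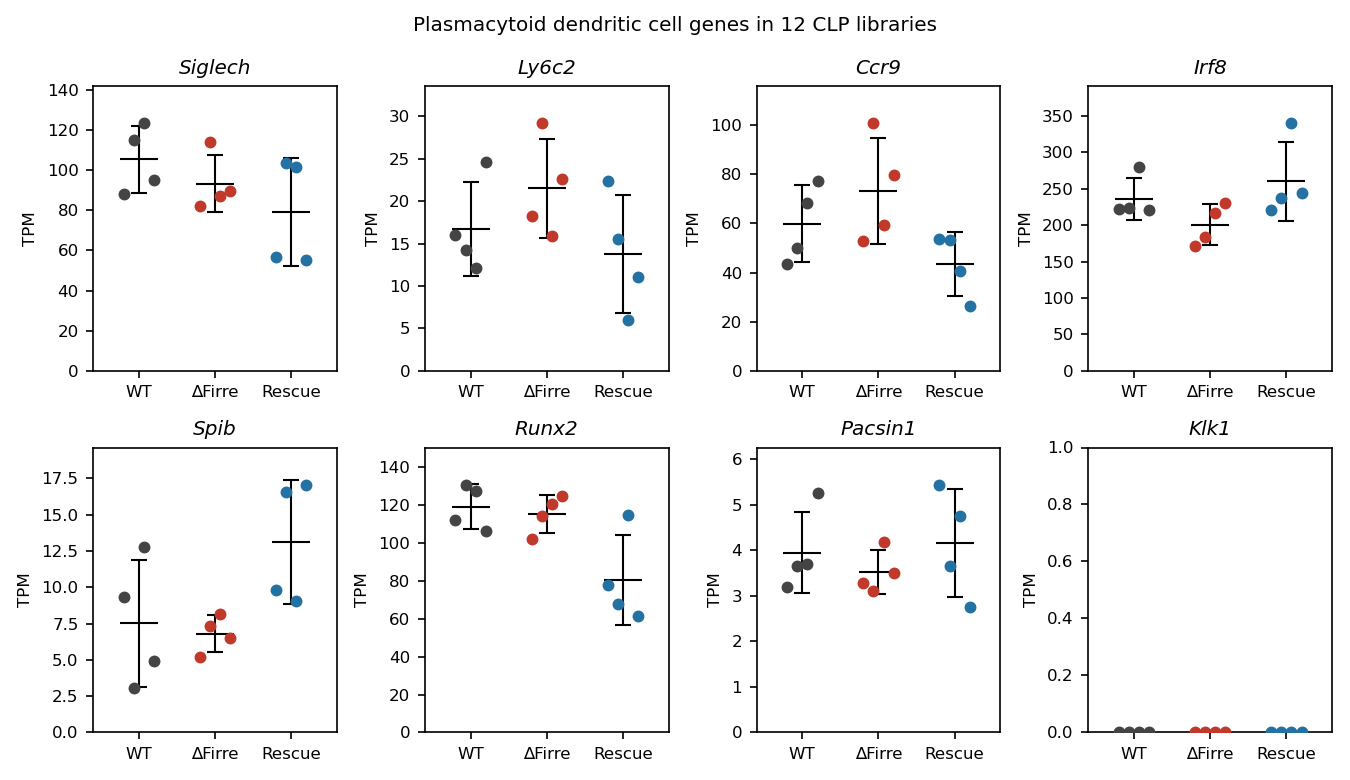
TPM of the 8 pDC genes (1 panel each, linear axis from 0) in 4 WT, 4 ∆Firre and 4 rescue libraries, with points for libraries in order of replicate number and bars for the mean ± SD. Klk1 is at 0 throughout, and Spib is the 1 gene whose ∆Firre and rescue points do not overlap.

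*Siglech*, which encodes the sialic acid-binding lectin that defines mouse pDCs, lies at chr7:55768154-55779448 and was present at substantial levels in the RNA of the sorted cells. Its levels were 87.9, 115, 123 and 95.2 TPM in WT mice 6, 8, 10 and 11. They were 81.8, 114, 87.1 and 89.6 TPM in ∆*Firre* mice 8, 9, 11 and 12, and 56.9, 103, 101 and 55.2 TPM in rescue mice 1, 2, 3 and 4. Rescue libraries 1 and 4 were below every WT and ∆*Firre* library, whereas rescue libraries 2 and 3 lay inside the range of both groups. Group means were 105 ± 16.6 TPM (SD, n = 4) in WT, 93.2 ± 14.3 TPM (SD, n = 4) in ∆*Firre* and 79.2 ± 26.8 TPM (SD, n = 4) in rescue. The difference between rescue and WT was -0.46 ± 0.21 (SE) on the log2 scale and did not pass (adjusted p = 0.16), that between rescue and ∆*Firre* was -0.28 ± 0.21 (adjusted p = 0.375), and that between ∆*Firre* and WT was -0.17 ± 0.21, with a 95% interval of -0.63 to 0.28. Leaving out rescue 2 gave a call against WT at -0.60 (adjusted p = 0.0782), as did leaving out rescue 3 at -0.60 (adjusted p = 0.0702), within a range of adjusted p from 0.0702 to 0.483 over the alternatives. The difference between rescue and ∆*Firre* was smaller without rescue 1 (-0.15), rescue 4 (-0.13) or ∆*Firre* 9 (-0.18) and larger without rescue 2 (-0.43), and that between ∆*Firre* and WT was -0.095 without WT 10 and -0.27 without ∆*Firre* 9. Scaling by median ratios gave -0.27 for rescue against WT, -0.16 for rescue against ∆*Firre* and -0.10 for ∆*Firre* against WT. The correction for exon GC content gave -0.11 for rescue against ∆*Firre*.

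*Ly6c2* encodes a GPI-anchored surface protein of pDCs and monocytes and lies at chr15:75108161-75112066. It measured 16.0, 14.2, 12.1 and 24.7 TPM in WT, 18.3, 29.2, 16.0 and 22.6 TPM in the ∆*Firre* group and 22.3, 15.6, 6.04 and 11.1 TPM in rescue, with libraries in the same order as above. All 3 groups overlapped, and the spread within rescue was the widest of the 3, with an SD of 6.91 around a mean of 13.8 TPM (n = 4). The log2 difference between rescue and ∆*Firre* was -0.70 ± 0.34 (adjusted p = 0.161), and it was called only without rescue 1, at -0.97 (adjusted p = 0.0607, in a range of 0.0607 to 0.354 over the alternatives), while without rescue 3 it was -0.39. Differences of 0.36 ± 0.34 between ∆*Firre* and WT and of -0.35 ± 0.34 between rescue and WT did not pass, and the latter was -0.036 without rescue 3. The first ran from 0.20 without ∆*Firre* 9 to 0.55 without WT 11. The second was also -0.16 without WT 11, -0.61 without rescue 1, -0.17 with median ratios and -0.092 with quantiles. *Ly6c1*, whose encoded protein is 94.7% identical over 131 residues, was listed at no more than 1.87 TPM, and reads that match both genes may have been assigned to either.

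*Ccr9*, at chr9:123767211-123783457, encodes the receptor for the chemokine CCL25 and guides pDCs and lymphoid progenitors to gut and thymus. WT libraries read 43.5, 50.1, 68.4 and 77.3 TPM, ∆*Firre* libraries 53.0, 101, 59.3 and 79.6 TPM and rescue libraries 53.6, 53.3, 40.5 and 26.2 TPM. Rescue 3 and 4 were below all WT and ∆*Firre* libraries, and the highest level was that of ∆*Firre* 9. *Ccr9* was 1.68-fold lower in rescue than in ∆*Firre* on the TPM + 1 scale, a log2 difference of -0.75 ± 0.26 that passed the test (adjusted p = 0.0649). This call was present under 15 of 23 alternatives, over which adjusted p ran from 0.0554 to 0.175. It was lost without ∆*Firre* 9 (-0.58, adjusted p = 0.175), ∆*Firre* 12 (-0.69, adjusted p = 0.143), rescue 3 (-0.73, adjusted p = 0.104) or rescue 4 (-0.53, adjusted p = 0.17), after scaling by median ratios (-0.63, adjusted p = 0.137) or quantiles (-0.67, adjusted p = 0.115), without a filter (adjusted p = 0.126) and with a correction for exon GC content (-0.59, adjusted p = 0.157). Against WT the rescue level differed by -0.47 ± 0.26 (adjusted p = 0.243), and ∆*Firre* differed from WT by 0.28 ± 0.26 (95% interval -0.29 to 0.85), neither of which passed. The first was -0.25 without rescue 4 and -0.28 with median ratios, and the second was 0.11 without ∆*Firre* 9 and 0.14 without WT 6.

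*Irf8*, at chr8:120736358-120756694, encodes a transcription factor that dendritic cell lineages need, and it was the most abundant member in every library. Its levels were 222, 223, 279.9 and 221 TPM in WT, 171, 183, 217 and 231 TPM in the ∆*Firre* group and 220.4, 237, 340.1 and 244 TPM in rescue. Among the ∆*Firre* libraries 3 of 4 were below every WT library, and 3 of 4 rescue libraries were above every ∆*Firre* library. The mean was 237 ± 28.9 TPM (SD, n = 4) in WT, 201 ± 28.0 TPM (SD, n = 4) in ∆*Firre* and 260.5 ± 54.0 TPM (SD, n = 4) in rescue. *Irf8* was 1.29-fold higher in rescue than in ∆*Firre*, at 0.36 ± 0.14 (adjusted p = 0.0911), whereas -0.24 ± 0.14 between ∆*Firre* and WT (adjusted p = 0.948) and 0.12 ± 0.14 between rescue and WT (adjusted p = 0.584) did not pass. Of these the first was -0.16 without WT 10, and the second was 0.21 without WT 10, 0.20 without rescue 1 and -0.0099 without rescue 3. The second was also 0.31 with median ratios and 0.25 with limma-voom, and 0.073 with the GC correction. The call was present under 11 of 23 alternatives, with adjusted p from 0.0159 to 0.226. It was lost without WT 6 (adjusted p = 0.108), WT 8 (adjusted p = 0.104) or WT 11 (adjusted p = 0.112), with the difference at 0.36 in each case. It was also lost without ∆*Firre* 8 (0.29, adjusted p = 0.219), ∆*Firre* 9 (0.32, adjusted p = 0.197), ∆*Firre* 11 (0.41, adjusted p = 0.111), rescue 3 (0.23, adjusted p = 0.192) or rescue 4 (0.39, adjusted p = 0.129). Dropping the filter, the variance trend or the WT group from the fit, or correcting for GC content (0.29, adjusted p = 0.226), also ended it.

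*Spib* encodes an ETS-family factor that pDCs and B cells use, and it lies at chr7:44525995-44532087. WT libraries read 9.31, 3.07, 12.7 and 4.93 TPM, ∆*Firre* libraries 5.22, 7.32, 8.17 and 6.47 TPM and rescue libraries 9.81, 16.5, 9.03 and 17.1 TPM. Rescue and ∆*Firre* did not overlap, as was the case for 21.9% of all genes tested in that comparison, and *Spib* was the 1 member of 7 for which this held. No member was free of overlap between ∆*Firre* and WT, against 5.33% of all genes, or between rescue and WT, against 18% of all genes. The log2 difference of *Spib* was 0.82 ± 0.36 between rescue and ∆*Firre* (adjusted p = 0.125), 0.83 ± 0.36 between rescue and WT (adjusted p = 0.13) and 0.01 ± 0.36 between ∆*Firre* and WT, none of which passed. These values rest on 31 to 214 reads per WT library, 73 to 126 per ∆*Firre* library and 257 to 529 per rescue library. Against ∆*Firre* the rescue level was called without WT 8 (adjusted p = 0.0735) or WT 10 (adjusted p = 0.0932), both at 0.82, and without rescue 3 (0.97, adjusted p = 0.0943), in a range of 0.0598 to 0.331 over the alternatives. Against WT it was called without WT 10 (1.11, adjusted p = 0.0565) or rescue 3 (0.98, adjusted p = 0.092), in a range of 0.0565 to 0.298, and without WT 8 the difference was 0.53. Quantile normalization gave a call in both comparisons, at 1.05 and 1.07, and a fit of the 2 groups alone gave one against ∆*Firre* (adjusted p = 0.0663).

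*Runx2*, at chr17:44495987-44814797, encodes a runt-domain factor that is known in pDCs for their exit from bone marrow and in bone for osteoblast fate. Its levels were 112, 131, 128 and 106 TPM in WT, 102, 114, 120.5 and 125 TPM in the ∆*Firre* group and 77.9, 67.8, 115 and 61.6 TPM in rescue. Rescue 1, 2 and 4 were below all 8 other libraries, and rescue 3 lay among them. *Runx2* was 1.47-fold lower in rescue than in ∆*Firre*, at -0.55 ± 0.16 (adjusted p = 0.0335), and 1.51-fold lower than in WT, at -0.60 ± 0.16 (adjusted p = 0.0266). ∆*Firre* and WT differed by -0.04 ± 0.16, with a 95% interval of -0.40 to 0.31. *Runx2* was called under all 23 alternatives in both rescue comparisons, with adjusted p from 0.00173 to 0.0938 against ∆*Firre* and from 0.00151 to 0.085 against WT. Without rescue 3 the differences were -0.74 and -0.78.

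*Pacsin1* encodes a membrane-bending adaptor that pDCs are known to need for interferon output through TLR9, and it lies at chr17:27655591-27711118. It was low throughout, at 3.19, 3.67, 3.70 and 5.25 TPM in WT, 3.27, 3.10, 4.19 and 3.51 TPM in the ∆*Firre* group and 5.44, 3.65, 4.76 and 2.76 TPM in rescue, on 63 to 246 reads per library. The 3 groups overlapped and no comparison passed, with log2 differences of -0.12 ± 0.25, 0.17 ± 0.25 and 0.04 ± 0.25 for ∆*Firre* against WT, rescue against ∆*Firre* and rescue against WT. The first was -0.0036 without WT 11 and -0.20 without WT 6. The second was 0.048 without rescue 1 and 0.31 without rescue 4. *Klk1*, at chr7:44225360-44229622, encodes tissue kallikrein, a secreted serine protease whose transcript is high in mature mouse pDCs. It was listed at 0 in all 12 libraries, and 3 reads, the limit that a count of 0 allows, would correspond to 0.307 to 0.974 TPM by library at the 876 bases of its exons in an older annotation. Its close copies *Klk1b4* and *Klk1b5*, whose encoded proteins are 82.4% and 91.2% identical to it, were also listed at 0 in every library, while *Actb* was never below 2088 TPM.

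**Figure D2:**
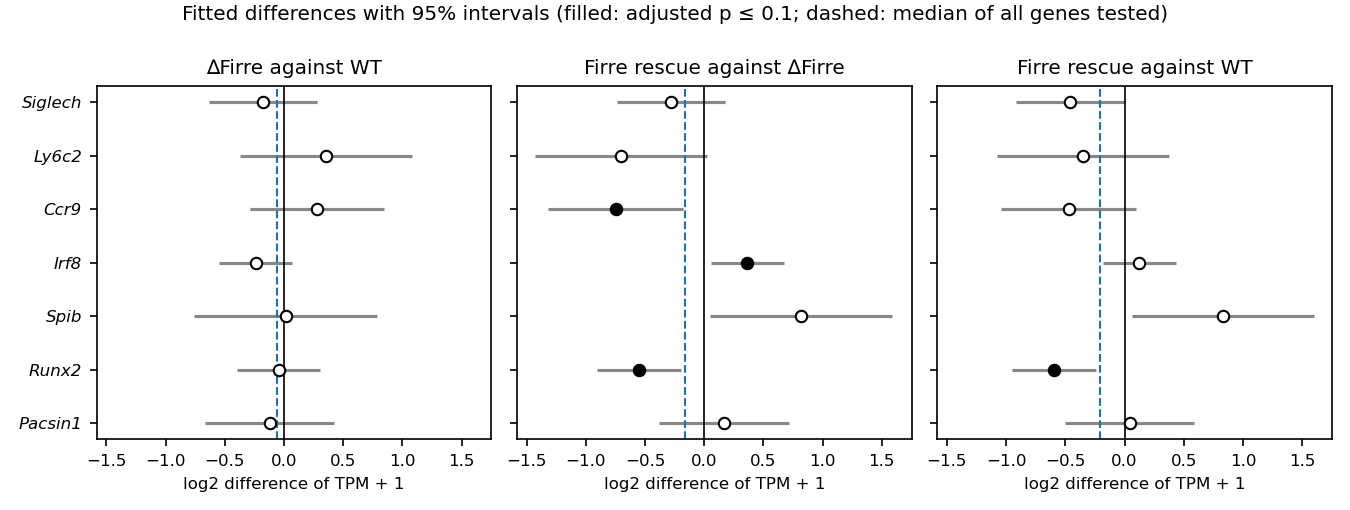
Fitted log2 differences of TPM + 1 (x axis) for the 7 tested pDC genes in 3 comparisons, with 95% intervals as lines. Filled points have an adjusted p of at most 0.1: Ccr9, Irf8 and Runx2 between rescue and ∆Firre, and Runx2 between rescue and WT. The dashed line is the median of all genes tested.

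In WT the order of levels was *Irf8*, *Runx2*, *Siglech*, *Ccr9*, *Ly6c2*, *Spib* and *Pacsin1*, with *Klk1* last at 0. The ranges of *Runx2* and *Siglech* overlapped, as did those of *Ly6c2* and *Spib* and of *Spib* and *Pacsin1*, and *Runx2* was above *Siglech* in each of the 4 WT libraries. In ∆*Firre* the order was the same, and the overlaps there were those of *Runx2* with *Siglech* and of *Siglech* with *Ccr9*. In rescue, *Runx2* at 80.6 ± 23.9 TPM and *Siglech* at 79.2 ± 26.8 TPM (SD, n = 4 each) had nearly the same mean, and *Ly6c2* at 13.8 TPM stood beside *Spib* at 13.1 TPM. By mean level among the genes tested, *Irf8* was at the 96.1st percentile, *Runx2* at the 88.6th, *Siglech* at the 86.7th and *Ccr9* at the 78.1st. *Ly6c2*, *Spib* and *Pacsin1* were at the 46.0th, 32.7th and 19.6th.

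Within the library number ranges that WT and ∆*Firre* share, 4 of the 7 tested members had the same sign of difference in both ranges and 3 had opposite signs. *Irf8* was lower in ∆*Firre* in both, by log2 differences of -0.20 and -0.28. The others with the same sign were close to 0 in the second range. *Siglech* was at -0.31 and -0.042, *Pacsin1* at -0.20 and -0.045, and *Runx2* at -0.088 and -2.3e-05. *Spib* differed by 0.62 in one range and by -0.59 in the other, *Ccr9* by -0.15 and 0.70, and *Ly6c2* by -0.13 and 0.84. Each of these values compares 2 libraries with 2 and carries no test.

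The members did not move as 1 unit across libraries. Over the 21 pairs of tested members, the median Pearson r of deviations from group means was 0.16 over 12 libraries, and 14 pairs were positive. The highest was that of *Irf8* and *Runx2* at 0.76 and the lowest that of *Irf8* and *Ly6c2* at -0.71. Rescue 3 weighs on both, with the highest *Irf8* (340.1 TPM) and lowest *Ly6c2* (6.04 TPM) of all libraries. It also had the highest *Runx2* among rescue libraries (115 TPM), and r without it was not computed. For *Siglech*, r with *Runx2* was 0.67 over the 12 libraries and 0.52 for deviations from group means, and r with *Ccr9* was 0.55 and 0.46. In the same order, r was 0.15 and 0.46 with *Irf8* and -0.05 and -0.31 with *Ly6c2*. It was -0.05 and 0.02 with *Pacsin1* and -0.32 and 0.01 with *Spib*. Of 13086 named genes tested, the 5 with the pattern most like *Siglech* over 12 libraries were *Csnk1a1* at 0.93, *Car5b* at 0.92, *Gm17509* at 0.91, *Zfp617* at 0.90 and *Vamp4* at 0.90. For deviations from group means they were *Csnk1a1* at 0.97, *Gtf2a1* at 0.94, *Vamp4* at 0.92, *Meis3* at 0.91 and *Gm17509* at 0.91. These correlations are descriptions over libraries that share a group structure and differ in depth.

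Beyond the 8 members, 54 further genes of pDC biology were listed, of which 52 were in the table and 46 passed the filter. None of them was called between ∆*Firre* and WT by limma, which called 0.0207% of all genes, or by limma-voom, which called 0 of 14477. Of the 46, 1 had an unadjusted p under 0.05, beside 767 of 14479 genes tested. Between rescue and ∆*Firre* 11 were called higher and 8 lower, and between rescue and WT 7 were called higher and 11 lower, which is 41.3% and 39.1% of the 46 beside 27.9% and 24.3% of all genes tested. After scaling by median ratios the counts were 12 higher and 6 lower against ∆*Firre*, and 11 higher and 3 lower against WT, beside 26.0% and 17.6% of all genes called under that scaling. With a correction for exon GC content they were 6 higher and 3 lower against ∆*Firre*, where 11 of the 19 calls were lost, and 5 higher and 9 lower against WT, beside 15.2% and 18.8% of all genes. The split by direction thus moved with the scaling, while none of the main calls changed sign under the scalings tried. The GC correction turned *Tsc22d1* and *Unc93b1* to -0.03 and -0.02 against ∆*Firre*.

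Among 12 further regulators, 2 were higher and 3 lower in rescue than in ∆*Firre*, with a median log2 difference of 0.13, beside 27.9% of all genes called and a median of -0.16. *Tcf4*, the E protein that directs pDC fate, was at 66.0 ± 14.3 TPM in WT, 59.0 ± 6.21 TPM in the ∆*Firre* group and 37.4 ± 6.71 TPM in rescue (SD, n = 4 each). It was lower in rescue by -0.65 against ∆*Firre* (adjusted p = 0.015) and by -0.79 against WT (adjusted p = 0.00682), and the first of these was -0.45 and not called after the GC correction (adjusted p = 0.102). *Runx1*, a relative of *Runx2*, was lower by -0.58 and -0.73, and *Etv6*, an ETS factor, by -0.30 and -0.27. The *Etv6* call was lost against ∆*Firre* with the GC correction (adjusted p = 0.132), and against WT under median ratio scaling, limma-voom and TPM recomputed without *Firre* and the ribosomal, mitochondrial and antibody genes. *Cxxc5*, which encodes a CXXC-type zinc finger protein, was higher by 0.65 against ∆*Firre* (adjusted p = 0.00166, and 0.43 after the GC correction) and by 0.38 against WT (adjusted p = 0.0279, with an adjusted p of 0.15 after that correction), and *Tsc22d1* was higher by 0.27 against ∆*Firre*.

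The 12 tested surface genes held 2 higher and 1 lower call against ∆*Firre*, and 1 higher and 2 lower against WT, shares close to those of all genes tested. *Ly6d*, a surface protein shared by pDC and B-lineage progenitors, was at 528 ± 54.2 TPM in WT, 485 ± 42.1 TPM in the ∆*Firre* group and 1258 ± 216 TPM in rescue (SD, n = 4 each). This is a log2 difference of 1.36 against ∆*Firre* (adjusted p = 6.03e-05) and of 1.24 against WT (adjusted p = 9.32e-05). *Bst2*, the tetherin used as a pDC marker, was higher by 0.42 against ∆*Firre* (0.16 and not called after the GC correction, adjusted p = 0.591), and *Ptprc*, which encodes CD45 and its B220 form, was lower by -0.57 and -0.58 (-0.31 and -0.41 after the GC correction, both still called). *Cd209d* was above 0 in 1 WT library only, at 0.229 TPM, and *Klra17* stayed at or below 1.72 TPM.

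In the list of nucleic acid sensing and interferon genes, 1 of 10 tested genes was higher and 3 were lower in rescue than in ∆*Firre*, beside 27.9% of all genes called, and 4 were lower than in WT, beside 24.3%. *Cd180*, which stands in this list but encodes a cell-surface protein related to toll-like receptors, was lower by -0.48 and -0.32. *Irak4*, a kinase downstream of MyD88, was lower by -0.48 and -0.57, and *Traf6*, the ubiquitin ligase that acts after it, by -0.36 and -0.43. *Irak1* was lower by -0.44 against WT, and *Unc93b1*, which carries TLR7 and TLR9 to endosomes, was higher by 0.33 against ∆*Firre*. Under median ratio scaling the calls of *Irak4* and *Traf6* were lost in both comparisons and those of *Cd180* and *Irak1* against WT, so that none of the 4 genes lower than in WT was called. After the GC correction neither *Cd180* (adjusted p = 0.125 and 0.251) nor *Traf6* (-0.18 and -0.32, adjusted p = 0.404 and 0.102) was called in either comparison, and *Irak4* was not called against ∆*Firre* (-0.36, adjusted p = 0.207). Among the interferon genes, *Ifna4* was listed at 0 in all 12 libraries and *Ifnb1* in all but 1 WT library, where it was at 0.28 TPM.

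Of the 12 other pDC genes tested, 6 were higher and 1 lower in rescue than in ∆*Firre*, with a median of 0.25 beside -0.16 over all genes tested, of which 27.9% were called and 69.3% of those calls were lower. *Cox6a2*, a cytochrome oxidase subunit that mouse pDCs express, was higher by 0.95 (adjusted p = 0.00872) and by 0.79 against WT (adjusted p = 0.0228). *Mzb1*, a chaperone of antibody-secreting cells and pDCs, was higher by 1.34 and 1.30, *Blnk*, a B cell receptor adaptor, by 0.90 and 0.97, *Plac8* by 0.44 in both and *Pld4*, an endolysosomal nuclease, by 0.59 and 0.54. *Pld4* was not called in either comparison after the GC correction, at 0.32 and 0.39 (adjusted p = 0.258 and 0.154), nor was *Plac8* after quantile normalization. Against WT 5 of the 12 were higher and 2 lower, beside 24.3% of all genes called. *Cybb* was lower by -1.10 and -0.88, and *Atp1b1* by -0.76 against WT. Quantile normalization and the GC correction each ended both *Cybb* calls, and median ratios or quantiles ended that of *Atp1b1*. In these pDC lists, *Blnk*, *Flt3*, *Ly6d* and *Mzb1* also stand in the B-lineage, antibody-secreting or lymphoid progenitor lists.

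**Figure D3:**
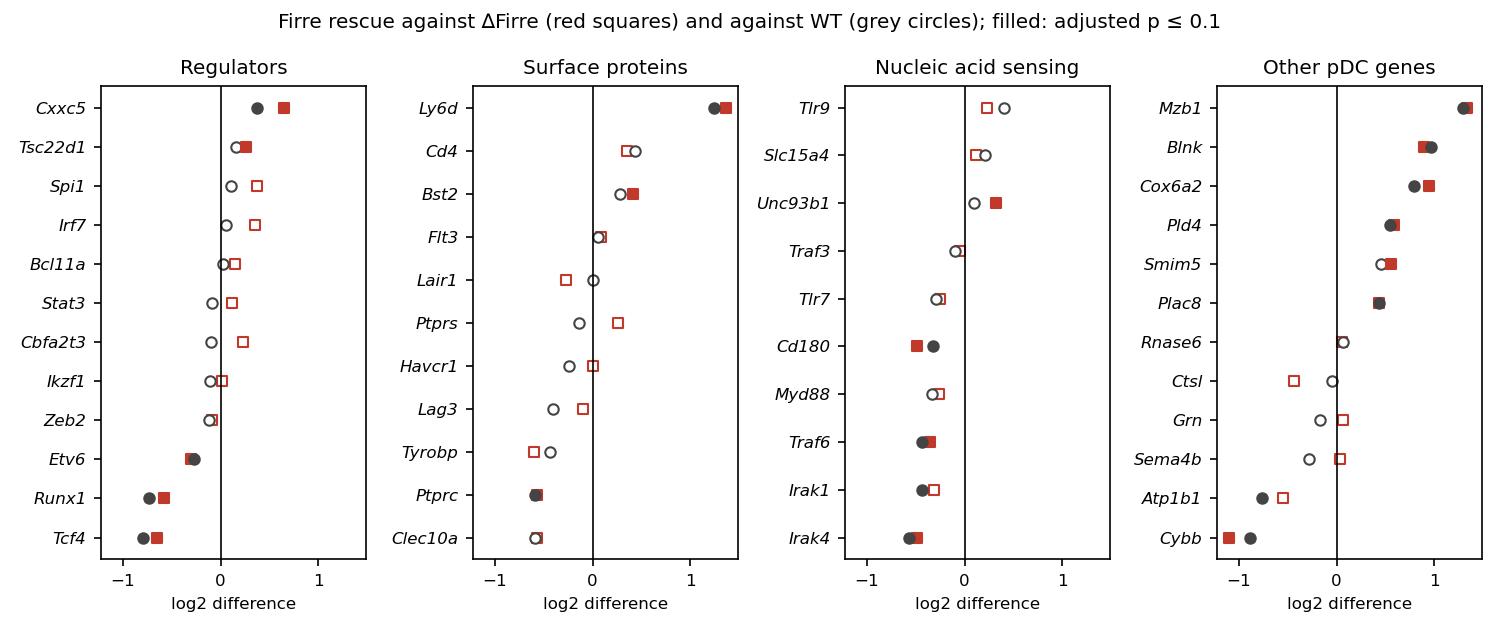
Log2 differences of TPM + 1 (x axis) for 45 of the 46 tested genes of 4 further pDC lists, rescue against ∆Firre as red squares and rescue against WT as grey circles, filled for an adjusted p of at most 0.1. Tcf4 and Runx1 lie at the low end of the regulators, while Ly6d and Mzb1 exceed 1 in both comparisons.

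Markers of other cell types moved between rescue and the other groups, and their part in the member results was not tested. Their counts stand beside 27.9% of all genes called against ∆*Firre*, 69.3% of them lower, and 24.3% called against WT, 80.1% of them lower. The 10 B-lineage progenitor genes summed to 1363 to 1960 TPM in rescue against 523 to 837 TPM in WT and 632 to 831 TPM in ∆*Firre*, and 9 of 10 were higher in both comparisons. *Vpreb1*, a surrogate light chain gene, was higher by 2.50 against ∆*Firre*. The 8 basophil and mast cell genes summed to 64.5 to 142 TPM in rescue against 1084 to 9241 TPM in WT and 2968 to 4383 TPM in ∆*Firre*, and 8 of 8 were lower in both comparisons.

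The 10 monocyte genes, whose cell type also carries *Ly6c2* and is a target of the CD11b and Gr-1 antibodies of the sort, summed to 215 to 350.1 TPM in rescue, 374 to 456 TPM in WT and 330 to 509 TPM in ∆*Firre*. *Ccr2*, a monocyte chemokine receptor, was lower in rescue by -1.92 against ∆*Firre*, and 4 of 9 tested monocyte genes were lower and 1 was higher. The 10 conventional dendritic cell genes, whose cell type also carries *Irf8*, summed to 877 to 1161 TPM in rescue, 1054 to 1369 TPM in WT and 1122 to 1326 TPM in ∆*Firre*. Of their 7 tested genes 4 were lower than in ∆*Firre*, among them *Clec9a* at 0.187 ± 0.312 TPM in rescue and 4.84 ± 1.27 TPM in ∆*Firre* (SD, n = 4 each), and *Zbtb46*, a defining factor of that lineage, stayed at or below 1.64 TPM. The 8 NK cell genes summed to 355 to 399 TPM in rescue and to 469 to 867 TPM in WT. The 10 antibody-secreting cell genes summed to 315 to 540 TPM in rescue and to 1647 to 3469 TPM in ∆*Firre*, against 904 to 1650.2 TPM in WT. In WT and ∆*Firre* most of this sum was *Jchain*, which encodes the joining chain of secreted antibody. Its mean went from 2313 TPM in ∆*Firre* to 70.4 TPM in rescue, where *Mzb1* was higher at 151 TPM. Of the 10 genes 6 were lower in rescue than in ∆*Firre* and 2, *Mzb1* and *Sdc1*, were higher.

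**Figure D4:**
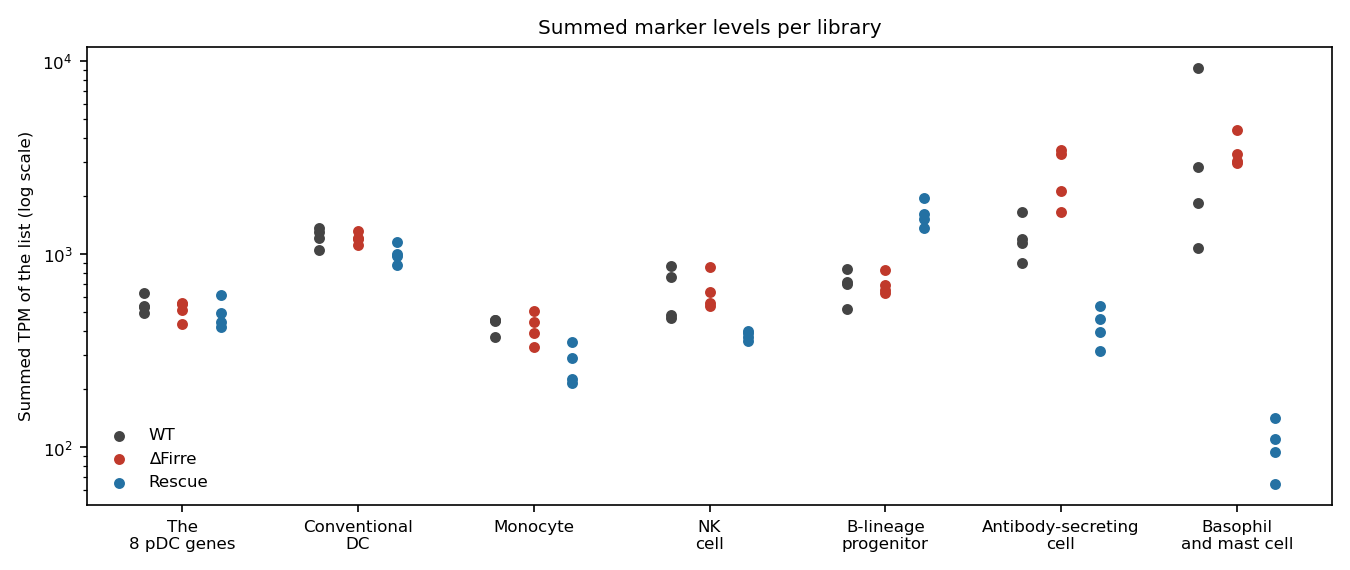
Summed TPM (log axis) of the 8 pDC genes and of 6 marker lists in each library, coloured by group. The pDC gene sums overlap between groups, at 494 to 628 TPM in WT, 435 to 558 TPM in the ∆Firre group and 418 to 617 TPM in rescue, while rescue sums lie apart from both other groups for B-lineage, NK cell, antibody-secreting and basophil genes.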

How the data were processed

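CLP libraries were made and sequenced by the authors, 1 per mouse. Per the labels and the methods, reads were trimmed with cutadapt, mapped to mm10 with TopHat2 2.1.1 and counted per Gencode gene with featureCounts, and the authors deposited the values as TPM. The gene length behind TPM and the strand and multi-mapping settings are not given in the sources used here. All 12 columns were used, genes were named by identifier (68.8% of identifiers matched a name), and groups were taken from the sample labels.

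The members and gene lists were chosen with earlier results of these data known. Genes with a mean of at least 1 TPM were tested on log2(TPM + 1) with limma 3.58.1 in R 4.3.3 (trended eBayes, 3 groups in 1 fit, two-sided, Benjamini-Hochberg over 14479 genes), and called up to an adjusted p of 0.1. The fit was tested on simulated data. All 8 members were named with the value in every library, and in each further list at most 5 called genes by smallest adjusted p. Genes given as low or listed at 0, defining markers, *Kit*, *Cybb* and *Atp1b1* were chosen after their values were seen. For *Siglech* the 5 most correlated genes were named, and near copies from 80% protein identity.

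Reads were recovered from the spacing of TPM within a tolerance of 0.02 of a whole read, which gave whole reads in every library for 99.99% of genes tested. TPM give no depth, so these reads served for depth, for read numbers and for limma-voom. Read numbers and limits cover counting error only, since PCR copies cannot be told from separate molecules in these libraries. Alternatives were pseudocounts of 0.1 and 5, other filters, scalings, fits and thresholds, 2 blocks and each library left out. A correction for exon GC content (splines, 4 degrees of freedom, 90.4% of genes tested), alone and with the replicate block, was chosen after seeing the data. Proteins were translated from an older annotation with Biopython 1.88 in Python 3.11.15. Protein sequences are not shown. The values of 1 surface gene are not reported here, though it is included in the counts of its list.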

Additional observations from a re-analysis of the deposited data

Results flagged for a closer look

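*Irf8* in WT was set apart by 1 library. WT 10 was at 8.13 on the log2(TPM + 1) scale, or 279.9 TPM, while the other 3 WT libraries were at 7.79 to 7.81, and the gap was 0.959 of the range of the group. Without WT 10 the difference between ∆*Firre* and WT was -0.16 in place of -0.24. This was 1 of 21 sets of 4 libraries examined, of which chance would mark about 1 in 20.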

How the results depend on the processing

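No member was called between ∆*Firre* and WT under any alternative. In the main fit 0 of 7 members had an unadjusted p under 0.05, beside 767 of 14479 genes. Few genes of any kind were called in this comparison, with 3 in the main fit, 0 by limma-voom and 6 without a filter. The lack of member calls could thus hardly have come out otherwise. Between rescue and ∆*Firre*, where 3 members were called, the count was 1 at an adjusted p of 0.05, 1 without a filter (12.9% of all genes called) and 1 with the GC correction (15.2% of all genes), and it ran from 1 to 4 with 1 library left out (1 without ∆*Firre* 9 or rescue 4), *Spib* and *Ly6c2* being among those called in some of these fits. For rescue against WT the count was 1, with 2 after quantile normalization and 1 to 3 with 1 library left out (2 without WT 10 or rescue 2, 3 without rescue 3). In total, 469 of 522 refitted or recalled member values kept sign and call, 22 lost a call, 11 gained one and 20 changed sign.

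Some values changed sign. For ∆*Firre* against WT, *Spib* was at -0.024 with a pseudocount of 5 and at -0.029 with limma-voom, and ran from -0.29 to 0.29 with 1 library left out. *Runx2* was at 0.025 with median ratios, 0.010 with quantiles, 0.00254 when TPM left out *Firre* and the ribosomal, mitochondrial and antibody genes and 0.014 with limma-voom, and ran from -0.098 to 0.014 with 1 library left out. *Pacsin1* was at 0.068 with the GC correction, with or without the replicate block. The GC correction also put *Pacsin1*, whose exon GC content of 59.3% is at the 95.4th percentile of genes tested, at -0.33 for rescue against ∆*Firre* and at -0.26 against WT, where it ran from -0.073 to 0.19 with 1 library left out. Quantile normalization moved *Pacsin1* the other way, to 0.57 and 0.42. *Irf8* against WT ran from -0.0099 to 0.21 in the same way. The cause was not tested.

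WT and ∆*Firre* share only mouse numbers 8 and 11, and no source pairs the mice. With the replicate block, *Irf8* was at -0.24 (adjusted p = 0.617) and 1 gene in place of 3 was called among all genes. Scaling by median ratios moved the median of all genes from -0.21 to -0.03 for rescue against WT. *Spib* and *Pacsin1* rest on as few as 31 and 63 reads in a library, and the part of depth in their spread was not tested. *Pacsin1* gave no value under a minimum mean of 5 TPM.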

Other observations

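In rescue, the 5 tested genes of type 2 innate lymphoid cells were all lower than in ∆*Firre*, and 4 were lower than in WT. *Rora*, a nuclear receptor of these cells, fell from 20.3 ± 4.53 TPM in ∆*Firre* to 8.68 ± 2.25 TPM in rescue (SD, n = 4 each). Of 9 tested neutrophil granule genes 2 were lower in both rescue comparisons, a share below the 27.9% and 24.3% of all genes tested that were called, namely *Ctsg* by -1.55 and *Mpo* by -0.56 against ∆*Firre*. Of 5 tested T cell genes 2 were lower, and *Cd3e* stayed at or below 0.732 TPM. Of 6 tested erythroid genes only *Hba-a2* was called, higher by 1.83 in rescue than in WT (adjusted p = 0.064), and its reads may be shared with the near copy *Hba-a1*. Among 10 CLP genes *Rag1* and *Ly6d* were higher and *Kit* was lower in both rescue comparisons. Their part in the levels of the pDC genes was not tested.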
